A study of Mus musculus with 12 samples.

Results

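Myocardial infarction (MI) and arterial hypertension (HTN) both act on the bone marrow, one within days and the other over a long exposure. The data described here set the transcriptomes of cells sorted as bone marrow endothelium after acute MI directly against those from chronically hypertensive mice, gene by gene, in the 6 libraries of these groups out of 12 in the series. The 3 MI libraries came from C57BL/6J mice that had undergone permanent coronary ligation, the 3 HTN libraries from C57BL/6J mice given chronic angiotensin II through osmotic minipumps, and all animals were 20 weeks old. The labels place the MI libraries at day 2 after infarction, whereas the text of the study names a later day. Naive C57BL/6J mice (n = 3), which had not been operated on, served as the reference level for both groups. A further 3 libraries, from Apoe(tm1Unc) mice with atherosclerosis, entered the fit. In the comparison of MI with HTN these served only to estimate the spread. They were also tested against the controls, and values of Scd1 and Treml4 from that test are given at the end. Each library was made from 1 mouse. Surgery, infarction and time after the insult differ together between MI and HTN and cannot be told apart, as is also true of hypertension and angiotensin II itself. The annotation places 55240 of 55421 counted genes on GRCm38, and 15999 passed the filter on low counts.

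Bone marrow vessels comprise arterioles and wide, thin-walled sinusoids whose endothelium releases factors that hold blood stem cells in place and lets mature leukocytes pass into the blood. Marrow also holds neutrophils at every step of maturation, red cell precursors and developing B lymphocytes. After tissue injury the marrow shifts its output to neutrophils and monocytes, and angiotensin II acts on marrow cells through the receptor encoded by Agtr1a. The sorting gate used in the study kept CD31-high, SCA-1-positive cells that lacked TER-119, CD41 and CD45, after depletion of lineage-positive cells.

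The libraries held 17007088 to 25136936 gene counts each, and TMM factors, which correct for differences in composition, lay between 0.934 and 1.06. Defining endothelial transcripts were present at low levels. Per length, Cdh5 (VE-cadherin) lay at 1.22 to 2.68 TPM (transcript counts normalised to length and library total) across the 12 libraries and the pan-leukocyte gene Ptprc (CD45) at 52.6 to 131 TPM. The 24 endothelial markers summed to 129.9 to 287 TPM, against 70540.5 to 175614 TPM for 13 neutrophil markers, 27798 to 79886 TPM for 14 erythroid markers and 292 to 1101 TPM for 16 B-lymphocyte markers. Transcripts of blood cells therefore made up far more of these libraries than endothelial ones, although CD45 was a negative gate, and the values below are those of the sorted fraction as sequenced. In bulk samples such as these, fewer cells of a type and less RNA per cell cannot be told apart. MI replicate 2 stood apart most: it correlated with the other 5 MI and HTN libraries at Pearson r of 0.962 to 0.978 across genes, while the 10 pairs without it reached 0.979 to 0.991. Results are therefore also given without MI replicate 2. HTN replicate 4 also differed from its group. Chi-square per degree of freedom was 61.6 and 51.1 between it and HTN replicates 2 and 3, and 15.4 between those. For MI replicate 2 against the other MI libraries it was 79.1 and 79.3.

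Levels of single genes are given as CPM (counts normalised to the library total after TMM scaling), in the order of replicates 2, 3 and 4. Differences are log2 fold changes, MI minus HTN, with standard errors from edgeR's quasi-likelihood fit across 15999 tested genes. No gene passed an adjusted p of 0.05 (0% of tested genes), and the smallest adjusted p was 0.52. The result depended on the filter: with none beyond 1 count in total, the same test called 185 genes higher and 237 lower. At an unadjusted p under 0.05, 668 genes (4.18%) were higher after MI and 677 (4.23%) lower. The likelihood-ratio test of edgeR placed 2 genes (0.0125%) under an adjusted p of 0.05, Vcan and Ms4a6d, both higher after MI. DESeq2 placed 11 genes (0.0688%) there, 4 higher (Vcan, Ms4a6d, Dpep2 and Wfdc17) and 7 lower (Kel, St5, Xpo7, Agtr1a, Treml4, Rfx2 and Scd1). In 1495 genes (9.34%) all 3 MI libraries lay above all 3 HTN libraries, and in 1636 (10.2%) all lay below. These shares are the background against which the gene groups below are read. The groups and their members were chosen with earlier results of these data known, so that this comparison is a description. Without MI replicate 2, the shares over all tested genes were 14.3% above and 15.1% below. Counts given without that library are read against these. Since no gene passed the quasi-likelihood test in the filtered fit, every gene named below is given with its values only.

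The 12 protein-coding genes with the smallest p among those higher after MI included Vcan and Ms4a6d. Vcan (ENSMUSG00000021614, chr13:89655312-89742509 on GRCm38, minus strand) encodes the matrix proteoglycan versican. It had 81.7, 16.8 and 26.2 CPM in the MI libraries, 5.04, 8.36 and 4.51 CPM in the HTN libraries and 6.73, 16.03 and 6.90 CPM in the controls. The lowest MI library lay above the highest HTN library but close to the highest control, and MI replicate 2 held more than the other MI libraries together. The log2 difference of Vcan was 2.80 ± 0.54 (adjusted p = 0.52, quasi-likelihood test) and 1.85 without MI replicate 2. Ms4a6d (ENSMUSG00000024679, chr19:11586604-11604849, minus strand), which encodes a membrane protein of monocytes and macrophages, was more even, with 58.2, 49.7 and 44.5 CPM after MI, 25.4, 23.3 and 16.8 CPM in HTN and 25.5, 35.3 and 25.5 CPM in controls. Here the MI libraries lay well above all controls and the HTN libraries below all controls, although the highest HTN library all but met the lowest control. The log2 difference was 1.22 ± 0.22. Its neighbour in the same family, Ms4a4a, had 111, 26.9 and 35.8 CPM after MI and 14.2, 12.3 and 7.81 CPM in HTN, again with the highest value in MI replicate 2. Beside these genes, 3 of 14 monocyte markers had all MI libraries above all HTN libraries and 1 below, and the set summed to 1947 to 2472 CPM of unscaled counts after MI and 1590.1 to 1725 CPM in HTN. In controls it summed to 1700 to 2356 CPM, which overlapped both groups. The part of monocyte number in these genes was not tested.

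The leukocyte dipeptidase gene Dpep2 had 7.29, 1.38 and 2.43 CPM after MI and 0.590, 0.788 and 0.651 CPM in HTN. Wfdc17, which encodes a small secreted protein of activated myeloid cells, had 163, 58.8 and 76.9 CPM after MI and 45.1, 33.4 and 21.6 CPM in HTN. In both, MI replicate 2 led, and the log2 differences of 2.44 and 1.58 became 1.48 and 1.02 without it. Fpr2, a formyl peptide receptor through which neutrophils and monocytes sense damaged tissue, had 65.1, 41.5 and 50.3 CPM after MI and 28.5, 33.8 and 32.7 CPM in HTN. Depp1, an autophagy regulator induced by FOXO factors, had 44.5, 39.8 and 31.1 CPM against 9.03, 19.8 and 11.1 CPM, and in this gene the 3 MI libraries were of similar height. The remaining members were Olfm1, Fcor, Cd244a (a receptor of natural killer cells), Vps13c (a lipid transfer protein) and Dock10 (an activator of small GTPases), with log2 differences of 1.06, 0.94, 0.86, 0.66 and 0.56. In Fcor, Dock10 and Vps13c the fitted difference from control was larger for HTN than for MI. Fcor had 7.12, 5.56 and 5.68 CPM after MI, 6.22, 5.14 and 5.43 CPM in controls and 3.09, 3.07 and 3.40 CPM in HTN, so that the HTN libraries stood apart and the MI libraries did not.

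Of the 12 genes with the smallest p that were lower after MI, 3 (Xpo7, Trim58 and Kel) are on the red cell list described below. Rfx2, a transcription factor of ciliated cells and the male germ line, had 13.7, 18.9 and 16.3 CPM after MI, 27.3, 30.6 and 35.95 CPM in HTN and 18.3, 21.8 and 26.1 CPM in controls, a log2 difference of -0.94 ± 0.18. Scd1, the desaturase that makes monounsaturated fatty acids, had 10.2, 12.9 and 10.5 CPM after MI, 21.8, 22.4 and 21.9 CPM in HTN and 18.1, 17.5 and 20.6 CPM in controls, with a narrow spread in each group. Treml4, a receptor of myeloid cells, had 9.94, 17.8 and 16.7 CPM after MI and 27.3, 29.9 and 36.8 CPM in HTN. St5 (a regulator of Rab GTPases) and St3gal6 (a sialyltransferase that contributes to selectin ligands) differed by -1.08 ± 0.22 and -0.74 ± 0.17. Tfr2, the transferrin receptor by which red cell precursors sense iron, had 27.9, 33.1 and 28.3 CPM after MI against 47.98, 46.6 and 56.8 CPM in HTN. Gfi1b, a repressor required for red cell and platelet formation, had 84.7, 105 and 82.1 CPM against 153, 168 and 167 CPM. Blk, a kinase of B lymphocytes, had 5.13, 6.83 and 8.92 CPM after MI, 12.2, 11.5 and 18.2 CPM in HTN and 13.2, 11.8 and 14.8 CPM in controls, and here the MI libraries stood apart from both other groups. Xpo7, Trim58, Kel and Agtr1a complete the list and are described with their gene groups.

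**Figure D1:**
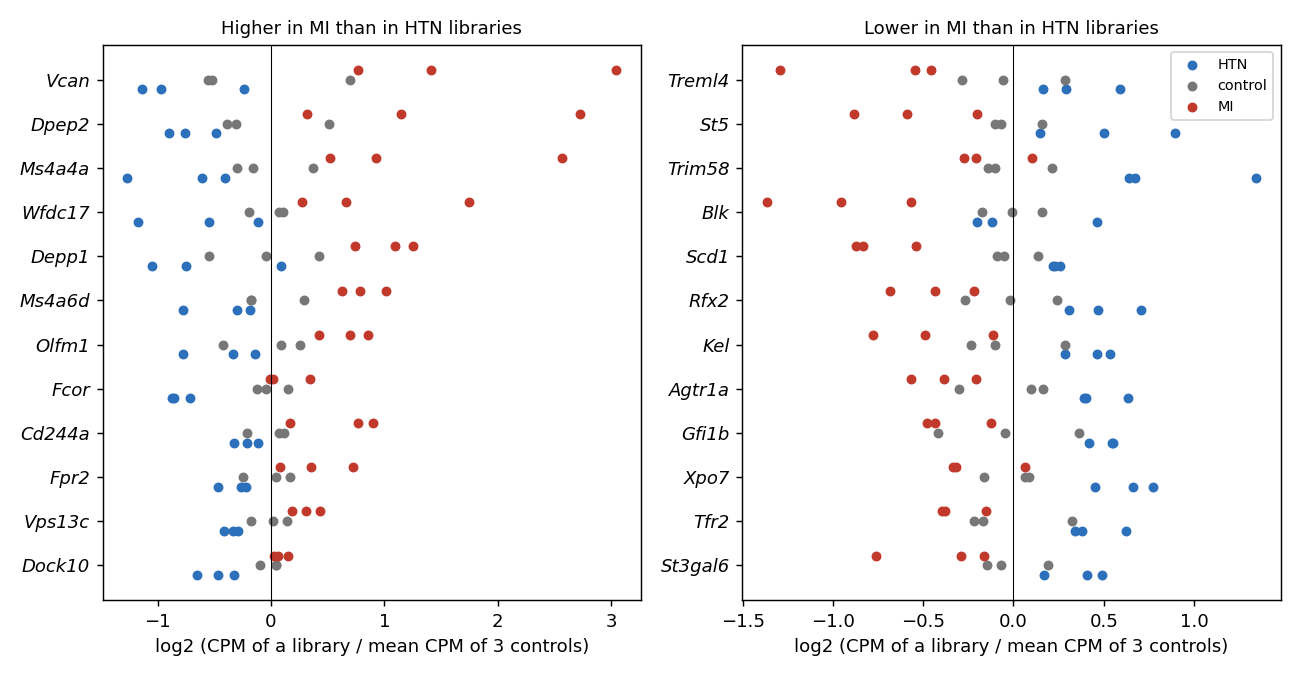
CPM of each library relative to the mean of the 3 controls, on a log2 scale, for the 12 protein-coding genes of smallest p in each direction; each point is 1 library. Since the genes were ranked on this contrast, the separation of MI and HTN points is a description; the position of the grey control points differs between genes, lying near the MI points for Fcor and Trim58 and near the HTN points for Blk.

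All 24 of these genes had non-overlapping MI and HTN libraries, which their ranking on this contrast favours. The controls placed them differently. In the other 9 of the 12 higher genes the fitted difference from control was larger for MI than for HTN. In 7 of the 12 lower genes it was larger for HTN. Leaving out any one MI or HTN library left the log2 differences of the higher genes between 0.48 and 3.17 and those of the lower genes between -1.27 and -0.59. Vcan, Cd244a, Fpr2, Depp1, Dpep2, Dock10, Xpo7, St5, Agtr1a, Kel and St3gal6 overlap other annotated genes, and since the strand setting of the counting is not given in the sources used here, reads from these neighbours may be included.

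Of the gene groups examined, the list of secondary and tertiary granule genes of neutrophils had the largest share of members whose libraries did not overlap. The list also holds genes whose products are not granule contents, such as Ltb4r1 and S100a8. Since the groups were chosen with earlier results known, their ranking is a description. Neutrophils make their granules in sequence: primary granules with serine proteases in promyelocytes, and secondary and tertiary granules with lactoferrin, lipocalin and gelatinase in later stages. Of 24 secondary and tertiary granule genes tested, 14 had all MI libraries above all HTN libraries and 0 had them below, against 9.34% and 10.2% of all tested genes, and 23 of the 24 log2 differences were positive. Their median was 0.61, and 0.47 without MI replicate 2, when 15 of 24 lay above. None passed the adjusted threshold, and 13 had an unadjusted p under 0.05. The 13 neutrophil markers, 9 of which are also on this list, summed to 55919.9 to 83122 CPM of unscaled counts after MI, 31678 to 47160.1 CPM in HTN and 54714 to 69619 CPM in controls, without overlap between MI and HTN, and 7 of them had all MI libraries above.

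Wfdc21, a secreted protein of maturing neutrophils, had 470.2, 383 and 348 CPM after MI and 247, 213 and 159.9 CPM in HTN (0.95 ± 0.29). Hp, which encodes the hemoglobin scavenger haptoglobin stored in these granules, had 3688, 2701 and 2305 CPM after MI, 1641, 1593 and 1206 CPM in HTN and 2488, 2106 and 2049 CPM in controls. The control libraries of Hp lay above every HTN library, and 1 of them lay within the MI range. Ifitm6, an interferon-induced membrane protein of myeloid cells, had 806, 709 and 596 CPM against 509, 446 and 381 CPM. Lcn2, the iron-siderophore binding lipocalin, had 2522, 1209 and 1183 CPM after MI, 799.7, 909 and 701 CPM in HTN and 1437, 1129.6 and 1229.9 CPM in controls, and MI replicate 2 was the highest, so that the difference of 1.03 became 0.57 without it. S100a8 and S100a9, the subunits of the inflammatory calcium-binding protein calprotectin, differed by 1.12 and 1.21, with the lowest values of both in HTN replicate 4. Camp, the cathelicidin precursor, had 6561, 5833 and 6663 CPM after MI and 4166, 3954 and 4198 CPM in HTN. The gelatinase gene Mmp9 overlapped between groups, as did Mmp8, Padi4 and Itgam, with log2 differences from -0.05 (Padi4) to 0.05 (Mmp9). The difference thus did not extend to every gene of these granules.

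Primary granule and neutrophil progenitor genes showed the same direction in fewer members. Of 18 tested, 9 had all MI libraries above all HTN libraries and 0 below, against 9.34% and 10.2% of all tested genes. The median log2 difference was 0.45 (0.42 and 12 of 18 above without MI replicate 2). Prtn3, which encodes proteinase 3, had 1404, 955 and 963 CPM after MI, 636, 523 and 355 CPM in HTN and 1236, 791 and 722 CPM in controls (1.13 ± 0.37). The related serine protease gene Prss57 had 75.7, 71.9 and 67.4 CPM after MI and 54.98, 47.2 and 40.3 CPM in HTN. The glutathione transferase gene Gstm1 had 192, 115 and 110.2 CPM against 83.1, 68.1 and 46.4 CPM. In these 3 genes HTN replicate 4 was the lowest of the 6 libraries. Elane, neutrophil elastase, had 9276, 10172 and 8918 CPM against 7524, 6297 and 6688 CPM. Mpo (myeloperoxidase) and the transcription factor genes Cebpe and Gfi1 overlapped between groups, with log2 differences of no more than 0.08 (Mpo) in size. Against controls, the median of the secondary and tertiary list was 0.23 for MI and -0.46 for HTN, and that of the primary list 0.09 and -0.23, and both differences share the control libraries.

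Gene length moved with the direction of the differences. Tested genes were divided into 5 equal bins by summed exon length. In the bin of the shortest genes (up to 1843 bases), 13.7% had all MI libraries above and 5.22% all below, whereas in the bin of 4609 to 6938 bases the shares were 7.16% and 13.4%. Of the 24 secondary and tertiary granule genes, 14 were in the bin of the shortest genes, as were 8 of the 18 primary granule genes. The part of gene length in these results was not tested.

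**Figure D2:**
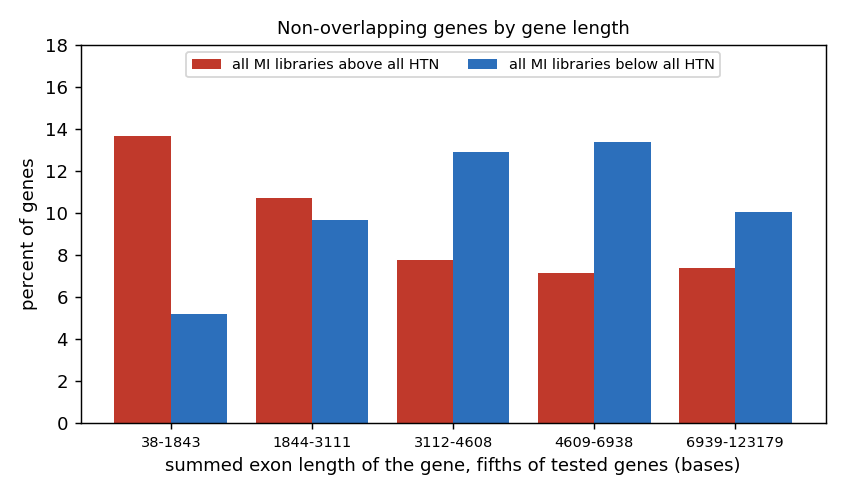
Share of tested genes whose 3 MI libraries all lay above (red) or all below (blue) the 3 HTN libraries, in 5 equal bins of summed exon length (bases, x axis). In the bin of the shortest genes 13.7% lay above and 5.22% below, and in the 3 bins of the longest genes the blue bar was the higher one.

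Red cell genes stood on the other side. Red cell precursors build hemoglobin and a spectrin-based membrane skeleton, import iron and then shed their nucleus. Of 37 genes of heme synthesis and the red cell membrane, 18 had all MI libraries below all HTN libraries and 0 above. Over all tested genes, 10.2% lay below and 9.34% above. Of the 37 log2 differences, 29 were negative. The median was -0.36, and -0.43 without MI replicate 2, when 24 of 37 lay below. None passed the adjusted threshold and 15 had an unadjusted p under 0.05. Against controls the list's median was -0.05 for MI and 0.33 for HTN.

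Xpo7, a nuclear exporter needed as red cell precursors condense their nucleus, had 210.1, 277 and 213 CPM after MI, 363, 452 and 419.6 CPM in HTN and 236, 277 and 282 CPM in controls (-0.82 ± 0.17). Trim58, a ubiquitin ligase that acts in enucleation, had 24.3, 30.1 and 23.2 CPM after MI, 43.7, 44.7 and 71.2 CPM in HTN and 26.1, 25.4 and 32.5 CPM in controls (-1.04 ± 0.23). In both genes the MI libraries lay within or beside the control range and the HTN libraries lay above it. Kel, the Kell blood group protein, had 139.9, 221 and 171 CPM after MI and 292, 330.3 and 347 CPM in HTN, with controls that spanned the gap between them (203, 223 and 293 CPM). Fech, the enzyme that inserts iron into heme, had 1431, 1952 and 1258 CPM after MI and 2926, 2543 and 2489 CPM in HTN. Among the regulators, Gata1 had 149, 161 and 152 CPM after MI, 219, 216 and 246 CPM in HTN and 169.9, 142 and 184 CPM in controls. Klf1, a further regulator of red cell genes, had 232, 588 and 520.4 CPM after MI against 673, 929.6 and 1256 CPM in HTN. The membrane skeleton genes Sptb, Epb42 and Epb41 differed by -0.58, -0.72 and -0.37, each without overlap.

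The globin genes did not share this pattern. Hbb-bs had 9688, 4473 and 3915 CPM after MI and 5079, 4098 and 3348 CPM in HTN, and Hbb-bt, Hba-a1 and Hba-a2 also overlapped, at log2 differences of 0.57, 0.28 and 0.12. MI replicate 2 held the highest level of each. Hba-a1 and Hba-a2 are nearly identical, so that the split of reads between them is uncertain. The band 3 gene Slc4a1 (0.13) and Rhag (0.14) also overlapped, as did Alas2, the first enzyme of heme synthesis in red cells (-0.21). The 14 erythroid markers, all of which are also on this list and which include the globins, summed to 17984 to 30801 CPM of unscaled counts after MI and 18149.9 to 25577 CPM in HTN, and the groups overlapped.

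Promoters of red cell genes are known as targets of GATA factors. Promoter windows on 1 chromosome were left out before counting. Here and below, genes on it count as having no window, among list members and among all genes. Of the 37 list members, 23 had a RefSeq promoter window (GRCm38.p6, 250 bases before to 50 after the annotated start) within 500 bases of the start used here. In 13 of these 23 (56.5%) the letters AGATAA or TGATAA occurred on either strand, against 10.2% of 9524 tested genes with a window and 14.8% of all 16774 genes with one. The 2 forms share the letters GATAA, and each site was counted once. The match was found in 7 of 14 members whose libraries did not overlap and in 6 of 9 members whose libraries overlapped, so that members with and without the difference both carried it. The windows of the 4 non-overlapping members with a match and the smallest p are shown, 5′ to 3′ on the gene's strand, with the matches in capitals (TTATCT and TTATCA are the same letters on the opposite strand). Kel (chr6:41704276-41704575, minus strand) holds 2 matches, 56 and 19 bases before the start. Trim10 (chr17:36869324-36869623, plus strand), Klf1 (chr8:84901732-84902031, plus strand) and Rhd (chr4:134864286-134864585, plus strand) hold 1 each, 163, 80 and 43 bases before the start.
Kel: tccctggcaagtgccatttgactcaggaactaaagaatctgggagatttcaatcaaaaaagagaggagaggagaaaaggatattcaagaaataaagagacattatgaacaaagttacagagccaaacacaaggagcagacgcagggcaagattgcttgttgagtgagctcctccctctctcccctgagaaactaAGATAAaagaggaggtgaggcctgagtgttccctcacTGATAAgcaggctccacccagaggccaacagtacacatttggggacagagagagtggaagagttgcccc
Trim10: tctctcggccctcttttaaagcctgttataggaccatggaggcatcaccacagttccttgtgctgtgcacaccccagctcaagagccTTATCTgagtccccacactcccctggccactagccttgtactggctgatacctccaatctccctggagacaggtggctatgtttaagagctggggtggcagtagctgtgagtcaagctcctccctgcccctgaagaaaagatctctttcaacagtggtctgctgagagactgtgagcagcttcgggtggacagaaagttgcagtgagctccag
Klf1: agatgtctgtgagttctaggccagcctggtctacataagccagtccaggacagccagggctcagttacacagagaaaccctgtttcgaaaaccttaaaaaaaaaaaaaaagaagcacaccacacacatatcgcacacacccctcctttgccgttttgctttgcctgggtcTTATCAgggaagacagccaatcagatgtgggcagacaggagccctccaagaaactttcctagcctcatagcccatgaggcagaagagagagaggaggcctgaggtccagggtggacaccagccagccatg
Rhd: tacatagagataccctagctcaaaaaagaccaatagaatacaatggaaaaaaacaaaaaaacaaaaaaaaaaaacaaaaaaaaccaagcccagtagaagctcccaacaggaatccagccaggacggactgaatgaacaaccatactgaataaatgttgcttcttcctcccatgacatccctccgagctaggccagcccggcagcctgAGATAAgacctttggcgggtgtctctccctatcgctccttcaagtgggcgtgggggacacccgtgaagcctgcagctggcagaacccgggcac
Trim10, a tripartite-motif protein of red cell precursors, had 231, 261 and 186 CPM after MI and 355, 352 and 366 CPM in HTN. Rhd, which encodes a Rhesus blood group membrane protein, had 847, 1456 and 1076 CPM against 1994, 1908 and 1778 CPM. A match is a description of these letters and was not tested for binding.

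For the secondary and tertiary granule genes, 14 of 24 had a window, and the letters GAGGAAG, which contain the core read by Ets factors such as PU.1, occurred on either strand in 4 of them (28.6%), against 14.1% of tested genes and 14.0% of all genes with a window. The match was found in 2 of 7 members whose libraries did not overlap and in 2 of 7 whose libraries overlapped. The 2 non-overlapping members that held it were Ltb4r1 (chr14:55765712-55766011, plus strand) and S100a8 (chr3:90668821-90669120, plus strand). Ltb4r1, a leukotriene receptor of neutrophils, had 241, 203 and 156 CPM after MI and 155, 149 and 104 CPM in HTN. S100a8 had 6883, 4060.2 and 3234 CPM after MI and 2803, 2486 and 1217 CPM in HTN. Their windows are printed with the matches in capitals (CTTCCTC on the opposite strand).
Ltb4r1: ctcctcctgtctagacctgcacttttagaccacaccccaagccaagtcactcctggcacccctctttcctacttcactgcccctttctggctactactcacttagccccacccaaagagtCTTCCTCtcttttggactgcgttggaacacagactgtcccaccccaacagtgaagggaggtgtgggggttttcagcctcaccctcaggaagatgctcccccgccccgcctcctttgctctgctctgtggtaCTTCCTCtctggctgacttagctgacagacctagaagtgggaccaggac
S100a8: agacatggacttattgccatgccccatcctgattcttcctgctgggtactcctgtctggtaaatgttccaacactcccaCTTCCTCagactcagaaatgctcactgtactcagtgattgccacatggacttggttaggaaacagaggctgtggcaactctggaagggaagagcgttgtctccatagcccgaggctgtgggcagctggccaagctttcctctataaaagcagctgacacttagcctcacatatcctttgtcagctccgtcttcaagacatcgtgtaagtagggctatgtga

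B-lymphocyte genes lay on the lower side after MI. Of 16 B-cell markers tested, 9 had all MI libraries below all HTN libraries and 0 above, against 10.2% and 9.34% of all tested genes. All 16 log2 differences were negative, with a median of -0.73. None passed the adjusted threshold and 8 had an unadjusted p under 0.05. MI replicate 2 had the lowest level of all 16 genes among the MI libraries, and without it the median was -0.42 with again 9 genes below. Ms4a1, which encodes CD20, had 10.05, 25.2 and 26.7 CPM after MI against 28.8, 41.6 and 52.8 CPM in HTN and 43.2, 45.00 and 34.7 CPM in controls. Cd79a, a signalling chain of the B-cell receptor, had 36.1, 65.1 and 77.8 CPM after MI, 89.7, 93.9 and 113 CPM in HTN and 118, 88.4 and 75.02 CPM in controls. In Ms4a1 the MI libraries lay below all controls as well, and in Cd79a they did so with 1 exception. The transcription factor gene Ebf1 had 25.1, 73.98 and 93.3 CPM after MI and 118, 125 and 323 CPM in HTN, its highest value being in HTN replicate 4. The recombination genes Rag1, Rag2 and Dntt overlapped, at -0.88, -0.37 and -0.12. Immunoglobulin genes, which plasma cells also transcribe, had all MI libraries above in 10 of 187 tested (5.35%) and below in 0, both under the shares of all genes. Their median of 0.43 ran from 0.12 to 0.83 on leaving out 1 library, and 180 of the 187 were among the shortest genes.

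**Figure D3:**
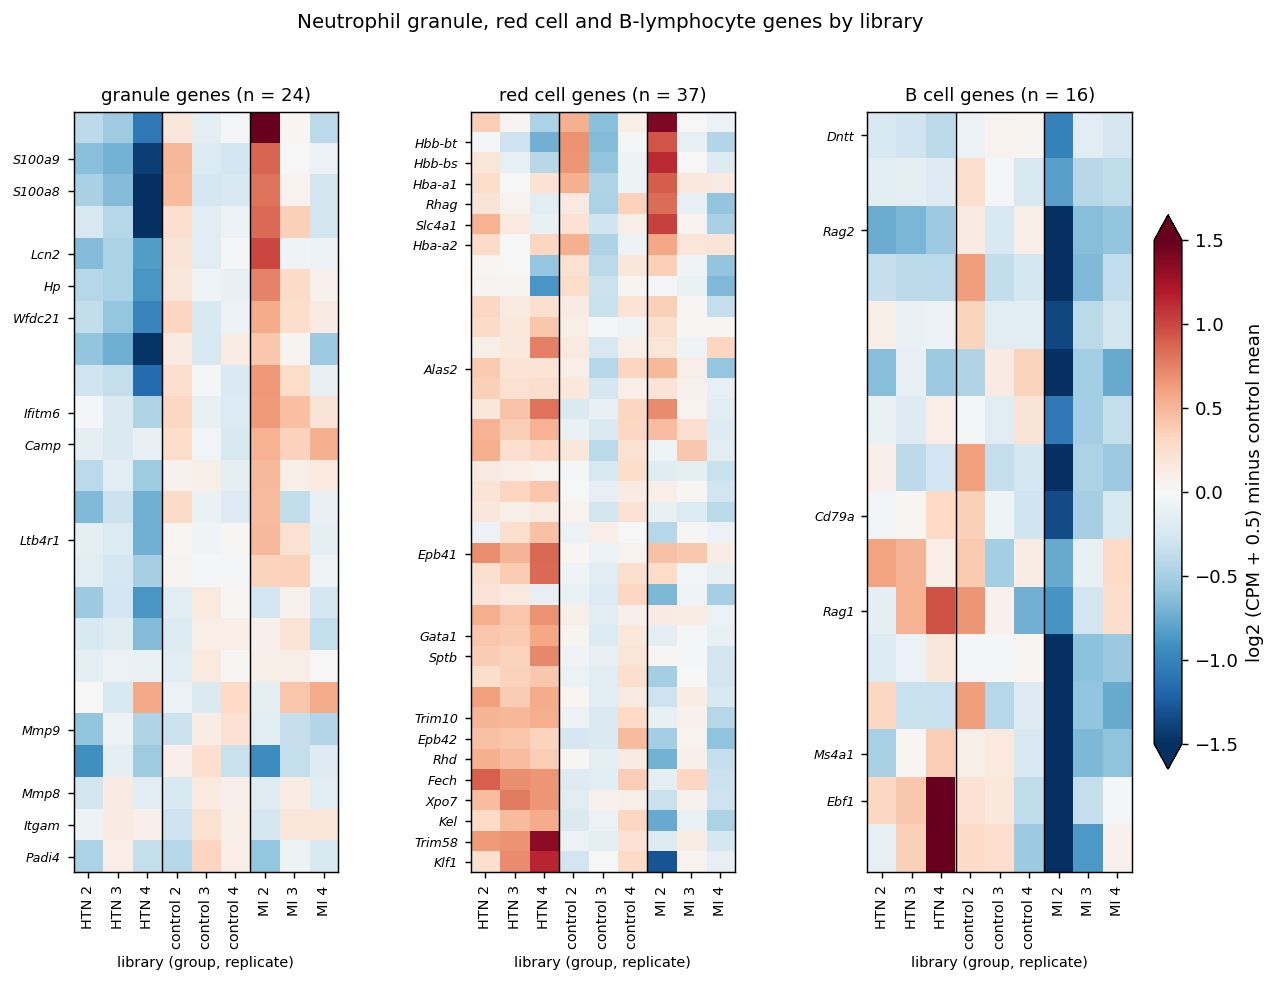
Level of each gene in each HTN, control and MI library as log2 (CPM + 0.5) minus the mean of the 3 controls (colour, cut at 1.5 on either side), for 24 secondary and tertiary granule genes, 37 red cell genes and 16 B-cell markers, 1 row a gene, ordered by the difference between MI and HTN, with the names of genes described in the text. The HTN columns are blue for most granule genes and red for most red cell genes, while among B-cell genes the MI columns are blue, most of all MI replicate 2.

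Genes of the cell cycle were more often lower after MI than higher. Of 35 S phase genes, 11 had all MI libraries below all HTN libraries and 1 above, with a median log2 difference of -0.19. Over all tested genes, 10.2% lay below and 9.34% above. Mcm2, a subunit of the replicative helicase, had 245, 333 and 238 CPM after MI, 415, 426 and 399 CPM in HTN and 274, 322 and 393 CPM in controls. Fen1, a nuclease that processes Okazaki fragments, had 10.3, 18.2 and 19.4 CPM after MI and 24.3, 30.00 and 40.5 CPM in HTN. Ccne1, the cyclin that drives entry into S phase, had 136, 161 and 145 CPM against 195, 237 and 209 CPM. In these 3 genes the MI and HTN libraries did not overlap. Of 31 G2 and M phase genes, 10 lay below and 0 above, also with a median of -0.19, which was -0.12 without HTN replicate 2 and -0.33 without MI replicate 3. The mitotic cyclins Ccnb1 and Ccnb2 differed by -0.35 ± 0.14 and -0.55 ± 0.24, and the mitotic kinase Plk1 had 177, 360.5 and 304 CPM after MI against 383, 462 and 810.5 CPM in HTN. Against controls, S phase genes had a median of -0.10 for MI and 0.09 for HTN, and both differences share the control libraries. The list's mean level in single control libraries ran from -0.10 to 0.09 log2 units around the control mean, a range that holds both medians. Without MI replicate 2, 14 S phase and 10 G2 and M phase genes lay below.

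The HTN mice received angiotensin II, and its receptor gene was among those with the smallest p. Agtr1a (ENSMUSG00000049115, chr13:30336441-30382867, plus strand), the type 1 receptor, had 8.94, 10.1 and 7.88 CPM after MI, 18.1, 15.5 and 15.3 CPM in HTN and 12.5, 9.48 and 13.1 CPM in controls. All HTN libraries lay above all controls and all MI libraries, with a log2 difference of -0.86 ± 0.19 that was -0.86 without MI replicate 2. Ace, the enzyme that makes angiotensin II, had 1.16, 1.85 and 2.43 CPM after MI and 2.27, 2.76 and 3.10 CPM in HTN and overlapped. Nos3, endothelial nitric oxide synthase, was at a low level, with 0.497, 1.11 and 0.405 CPM after MI and 0.499, 0.394 and 0.451 CPM in HTN, and its 95% interval of the log2 difference ran from -0.76 to 1.93. Of the 29 genes tested, 6 had all MI libraries above, among them Cyba, Agtrap, Ednrb, Ptgs1 and Cybb, and 2 below (Agtr1a and Ednra), with a median of 0.14 (0.08 without HTN replicate 4). These shares were 20.7% and 6.90%, against 9.34% and 10.2% of all tested genes. Cyba and Cybb encode parts of the phagocyte NADPH oxidase, which neutrophils express at high levels. Cyba had 1321, 1055 and 1188 CPM after MI and 827, 891 and 853 CPM in HTN.

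**Figure D4:**
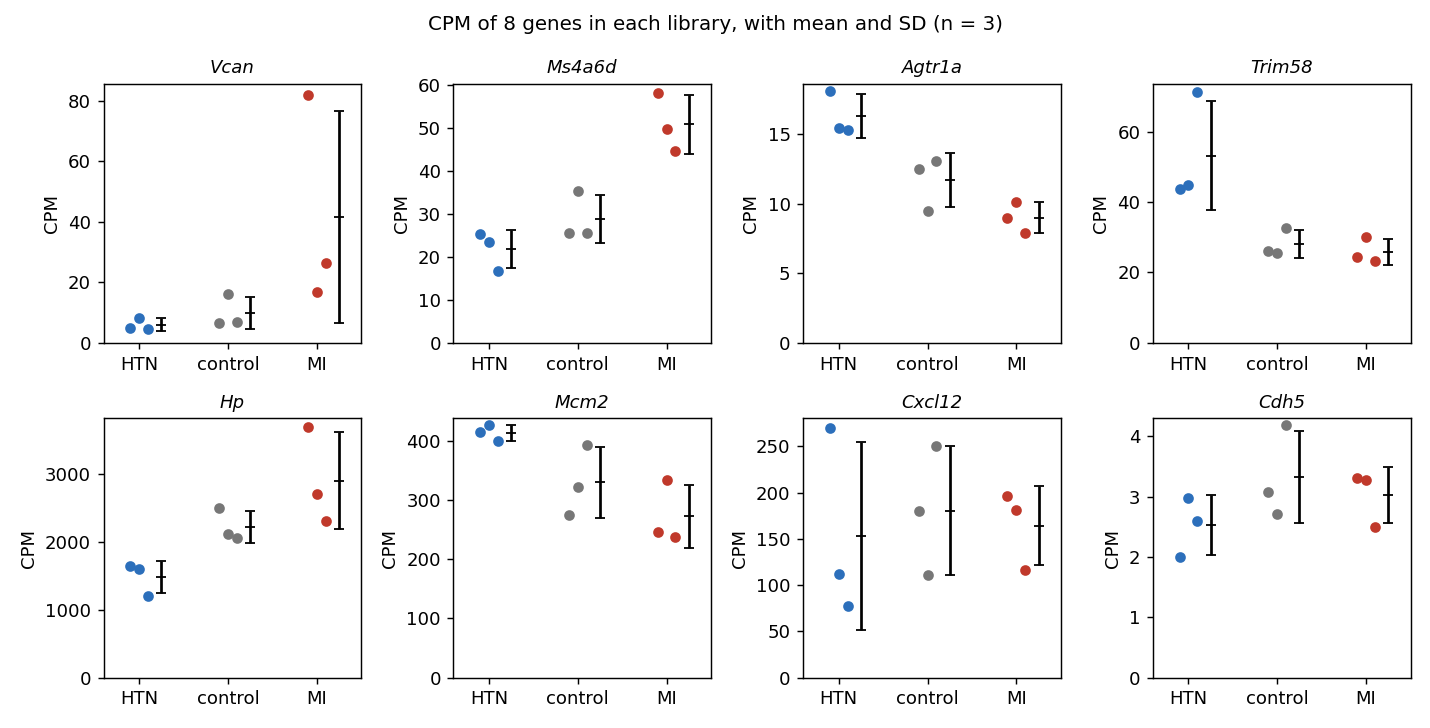
CPM of 8 genes in each HTN, control and MI library (points), with the mean and SD of each group of 3 (black). Ms4a6d and Agtr1a separate MI from HTN with little spread, and Trim58 separates them with 1 HTN library well above the others. Vcan rests on 1 high MI library for its size, and Cxcl12 and Cdh5 overlap.

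Genes of factors that support blood stem cells did not separate the groups. The study describes Cxcl12, Vcam1, Kitl and Angpt1 as coming from several types of niche cell. Their levels here need not be those of endothelium alone. Of 18 niche factors tested, 0 had non-overlapping libraries in either direction, against 9.34% above and 10.2% below over all tested genes. The median log2 difference was 0.02. Its sign depended on single libraries, from -0.21 without HTN replicate 4 to 0.24 without HTN replicate 2. Cxcl12, the chemokine that retains stem cells, had 196, 181 and 116 CPM after MI and 269, 112 and 77.9 CPM in HTN, with an interval of the log2 difference from -0.74 to 0.95. Kitl, stem cell factor, had 16.2, 31.6 and 17.9 CPM against 32.5, 16.2 and 8.91 CPM (-0.57 to 0.95). Angpt1, the ligand of the receptor TIE2, had 11.98, 11.1 and 17.6 CPM against 13.98, 15.5 and 14.4 CPM (-0.56 to 0.34), and the adhesion molecule gene Vcam1 303, 201 and 145 CPM against 229, 187 and 125 CPM (-0.27 to 0.79). These intervals are wide enough to hold differences of either sign. The 3 members of smallest p were Spp1, which encodes osteopontin (0.96 ± 0.39), Il6 (-0.53 ± 0.32) and the Notch ligand gene Jag1 (-0.69 ± 0.44). Il6, the cytokine interleukin-6, had 1.21, 2.80 and 2.49 CPM after MI, 2.09, 3.68 and 3.66 CPM in HTN and 2.07, 1.79 and 1.75 CPM in controls, and MI and HTN overlapped.

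VEGF and angiogenesis genes also showed few separated libraries. Of 27 tested, 1 had all MI libraries above and 0 below, against 9.34% and 10.2% of all tested genes. The median was 0.03 (-0.07 without HTN replicate 3 and 0.14 without HTN replicate 2). The member above was Epas1, a hypoxia-inducible transcription factor of endothelium, with 6.85, 7.57 and 5.39 CPM after MI and 5.36, 4.86 and 2.55 CPM in HTN. S1pr1, the sphingosine 1-phosphate receptor of endothelium and lymphocytes, and Pdgfrb, the platelet-derived growth factor receptor of pericytes, differed by -0.60 ± 0.36 and 0.47 ± 0.31. Vegfa had 23.1, 31.5 and 25.5 CPM after MI and 25.2, 34.3 and 30.8 CPM in HTN (-0.62 to 0.27), and its receptor gene Kdr had 6.57, 11.01 and 8.98 CPM against 8.76, 7.93 and 6.91 CPM (-0.37 to 0.71).

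Cytokine and chemokine genes included 4 of 51 with all MI libraries above (Ccl9, Tnf, Csf2rb and Ccr1) and 7 below (Ccl22, Ccl7, Ccl2, Lif, Cxcl13, Ccr7 and Ccl3). These shares, 7.84% and 13.7%, were near the 9.34% and 10.2% of all tested genes. The list's median was -0.04 (-0.20 without HTN replicate 4). Ccl22, a chemokine of dendritic cells and macrophages, rested on few reads, with 3, 1 and 3 counts after MI, 12, 12 and 9 in HTN and 4, 5 and 8 in controls. Its fitted log2 difference of -1.92 ± 0.59 depends on so few counts. Ccl9 had 156, 56.1 and 69.6 CPM after MI and 52.5, 50.1 and 34.00 CPM in HTN, a difference of 1.04 that was 0.47 without MI replicate 2. Ccl7, which attracts monocytes, had 2.15, 5.98 and 4.69 CPM against 12.2, 8.58 and 6.36 CPM.

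Leukocyte adhesion genes had a median of 0.06 (0.02 without HTN replicate 4 and 0.10 without HTN replicate 3), with 3 of 38 above (Sele, F11r and Pecam1) and 2 below (Itgb5 and Cd99l2). At 7.89% and 5.26%, both were under the shares of all tested genes. The integrin gene Itgb5 had 28.8, 32.6 and 28.4 CPM after MI, 53.2, 44.3 and 50.2 CPM in HTN and 35.1, 34.1 and 41.7 CPM in controls (-0.72 ± 0.20). Sele, which encodes the endothelial E-selectin, had 3.04, 3.12 and 2.03 CPM against 1.77, 1.66 and 1.80 CPM, and Itga9 differed by -0.65 ± 0.32. Pecam1, the gene of the sorting antigen CD31, had 20.4, 20.1 and 19.7 CPM after MI and 19.2, 17.2 and 19.6 CPM in HTN, so that the closest libraries of the groups all but met. Of the other genes of the gate and the design, Ly6a (SCA-1) had 10.4, 19.6 and 16.7 CPM after MI and 12.3, 8.23 and 5.16 CPM in HTN (0.86 ± 0.39). Ptprc had 463, 599 and 574 CPM against 508, 585 and 529 CPM. Both overlapped, as did Cdh5 (0.26 ± 0.28) and the apolipoprotein gene Apoe (0.43 ± 0.36).

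Interferon response genes had a median of -0.16, with 3 of 71 above and 7 below, both under the shares of all genes. The median was -0.32 without MI replicate 3 and 0.02 without MI replicate 2, when 13 lay above and 7 below. Over all tested genes the shares without MI replicate 2 were 14.3% above and 15.1% below. Of all 12 libraries, MI replicate 2 held the list's lowest mean level, -0.77 log2 units from the control mean. The other MI libraries were at -0.04 and -0.17. The members of smallest p were the interferon-induced GTPase genes Igtp (-0.49 ± 0.17) and Gbp2 (-0.69 ± 0.25) and Slfn2 (0.82 ± 0.38), a growth regulator of leukocytes. Of 27 antigen presentation genes, 5 lay below (H2-Ab1, H2-Q7, H2-Q6, Ciita and H2-K1) and 2 above (Psmb10 and Psmb8), with a median of -0.10 that ran from -0.17 without MI replicate 4 to -0.04 without HTN replicate 2. These shares were 18.5% and 7.41%, against 10.2% and 9.34% of all tested genes. The class II gene H2-Ab1, also expressed by B lymphocytes, had 261, 431 and 491 CPM after MI, 575, 627 and 659 CPM in HTN and 495, 470.3 and 531 CPM in controls. H2-Q7, which is close in sequence to its neighbours so that reads may be split among them, and H2-Ob differed by -0.42 ± 0.16 and -0.58 ± 0.22.

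Matrix genes were addressed by 2 lists. Of 48 genes of collagens and fibrosis, 7 had all MI libraries below (Col5a1, Col6a2, Loxl3, Postn, Nid2, Col16a1 and Col1a1) and 0 above, with a median of -0.11. The share below is close to the background of 10.2%, and the list's median turned positive on leaving out HTN replicate 2 or MI replicate 4 (0.11 and 0.06). Col5a1, a collagen that nucleates fibrils, had 15.6, 15.98 and 14.5 CPM after MI, 24.2, 21.1 and 23.7 CPM in HTN and 15.6, 14.5 and 23.1 CPM in controls. Col6a2 differed by -0.999 ± 0.44 and Tgfbi, a matrix protein also made by macrophages, by 1.11 ± 0.40, which was 0.30 without MI replicate 2. Of 29 proteoglycan and hyaluronan genes, 3 lay above (Vcan, Srgn and Cd44) and 4 below (Sdc3, Sdc4, Hyal2 and Agrn), with a median of -0.09 that became 0.18 without HTN replicate 2. Both shares, 10.3% and 13.8%, were close to those of all tested genes. Sdc3 and Sdc4, which encode the membrane heparan sulfate proteoglycans syndecan-3 and syndecan-4, showed the same order. Sdc3 had 18.4, 22.9 and 19.9 CPM after MI and 34.5, 28.3 and 27.2 CPM in HTN. Sdc4 had 6.29, 5.29 and 7.99 CPM after MI and 9.94, 9.85 and 13.3 CPM in HTN. Vcan and the syndecans thus lay on opposite sides within 1 list.

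Stress and housekeeping groups depended on single libraries to different degrees. Glucocorticoid-induced genes had a median of 0.45 over 25 genes, with 0 above and 2 below, and 0.01 without MI replicate 2 (0.71 without MI replicate 3). Over all tested genes, 9.34% lay above and 10.2% below. Pik3ip1, an inhibitor of PI3 kinase, had 86.1, 19.4 and 18.01 CPM after MI and 17.02, 21.5 and 17.1 CPM in HTN. The metallothionein gene Mt1 had 186, 80.8 and 95.7 CPM against 74.7, 66.7 and 82.6 CPM. Il1r2, the decoy receptor for interleukin-1, had 196, 75.4 and 55.7 CPM against 50.8, 61.1 and 47.7 CPM. In each of these MI replicate 2 stood far above the other 5 libraries. Clock genes followed, with 0 of 18 above and 1 below and a median of 0.21 (0.09 without that library and 0.32 without MI replicate 3). Arntl, the activator BMAL1, had 11.5, 22.2 and 23.7 CPM after MI, 25.6, 32.7 and 33.3 CPM in HTN and 43.2, 31.7 and 40.5 CPM in controls, and the MI libraries lay below both other groups. Per1, a repressor of the clock, had 28.3, 9.95 and 10.1 CPM against 8.13, 9.33 and 10.7 CPM, and Nfil3 differed by 0.52 ± 0.26.

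Hypoxia-induced genes, many of which encode glycolytic enzymes, had 8 of 25 above and 0 below, with a median of 0.18 (0.13 without MI replicate 2, with 10 above). Over all tested genes, 9.34% lay above and 10.2% below. Ankrd37, a target of hypoxia-inducible factor, had 3.59, 2.22 and 2.72 CPM after MI, 1.59, 1.23 and 1.45 CPM in HTN and 1.40, 1.62 and 1.51 CPM in controls. The glycolytic genes Eno1 and Pgk1 differed by 0.44 ± 0.19 and 0.41 ± 0.19. Immediate early and heat shock genes had 4 of 29 above (Ier3, Fos, Zfp36 and Klf2) and 6 below (Dnajb1, Egr2, Egr3, Junb, Nr4a1 and Nr4a3), with a median of -0.14 that ran from -0.29 without HTN replicate 2 to -0.02 without HTN replicate 4. The chaperone gene Dnajb1 had 164, 232 and 208 CPM after MI and 271, 344 and 438 CPM in HTN. Egr2 and Ier3 differed by -0.88 ± 0.33 and 1.34 ± 0.51, the latter 0.60 without MI replicate 2.

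Ribosomal protein genes had 20 of 77 above and 0 below, against 9.34% and 10.2% of all tested genes. Their median was 0.44, and 0.21 without MI replicate 2, when 20 lay above and 2 below. Of the 77, 40 were in the bin of the shortest genes, and many have processed copies in the genome that share reads. Rpl9, Rpl30 and Rps20 differed by 0.42 ± 0.18, 0.64 ± 0.28 and 0.66 ± 0.29. All 15 tested mitochondrially encoded genes had positive differences, 6 of them with all MI libraries above and 0 below, and a median of 0.64 (0.56 without MI replicate 2 and 0.42 without HTN replicate 4). The cytochrome oxidase gene mt-Co1 had 2679.8, 1562 and 2448 CPM after MI and 1403, 1427 and 1227 CPM in HTN. The complex I gene mt-Nd6 had 338, 176 and 302 CPM against 166, 156 and 82.7 CPM. The transfer RNA gene mt-Te differed by 1.67 ± 0.63 on 4 to 31 counts a library. All 15 were in the bin of the shortest genes, and HTN replicate 4 had the lowest mean level, -0.91 log2 units from the control mean. The part of transcript length and of these libraries was not tested.

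**Figure D5:**
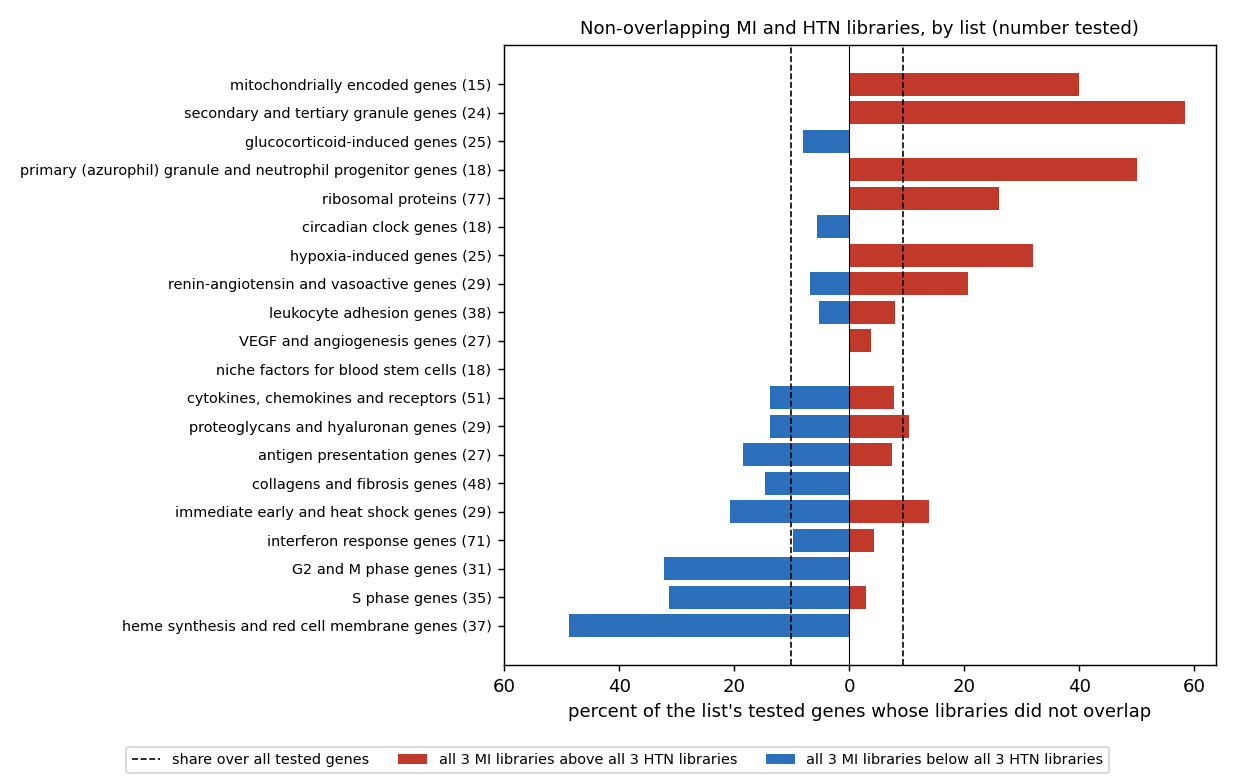
Share of each list's tested genes (number in brackets) whose 3 MI libraries all lay above (red, to the right) or all below (blue, to the left) the 3 HTN libraries; dashed lines give the shares over all 15999 tested genes, 9.34% and 10.2%. Among these 20 pathway lists, granule genes extend farthest to the right and red cell genes farthest to the left, and niche factors have no bar; the B-cell markers described above are not drawn.

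The summed levels of 19 sets of cell type markers, as a share of unscaled counts, place these groups in context. In an exact two-sided permutation test of 3 against 3 libraries the smallest possible p is 0.1, so that no set could pass 0.05. Neutrophil and monocyte markers were the sets that were higher after MI without overlap, with ratios of MI to HTN of 1.64 and 1.28. Among the monocyte markers, Ly6c2, the antigen of inflammatory monocytes, had 529, 281 and 301 CPM after MI against 209, 209 and 147 CPM in HTN. Of the 14 members, 9 had positive and 5 negative log2 differences. The monocyte sums of the controls, 1700 to 2356 CPM, overlapped both MI and HTN. Sets lower after MI without overlap were B cells (242 to 577 CPM against 685 to 1027 CPM), basophils and mast cells (1145 to 3315 CPM against 3723 to 4740.5 CPM), plasmacytoid dendritic cells (394 to 518 CPM against 544 to 592 CPM) and osteoclasts (499.6 to 516 CPM against 540.0 to 679.9 CPM). Each of these 6 sets had p = 0.1, the smallest the exact permutation test allows, and 0.317 after Benjamini-Hochberg adjustment over the 19 sets. The closest osteoclast libraries were MI replicate 3 (516 CPM) and HTN replicate 2 (540.0 CPM), with TMM factors of 0.960 and 1.01. Scaling by these factors reverses their order, so that the osteoclast separation holds for unscaled counts only.

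The basophil set rested on the protease gene Prss34, at 955, 2586 and 2795 CPM after MI and 3578, 3222 and 4143 CPM in HTN, and its other members overlapped. The osteoclast set held Mmp9, which neutrophils also make, as its most abundant gene, and its member without overlap was the phosphatase gene Acp5, at 76.5, 147 and 125 CPM against 196, 217 and 221 CPM. Endothelial markers summed to 228 to 278 CPM after MI and 208 to 239.6 CPM in HTN (ratio 1.08), with 2 of 24 genes above and 1 below. Those above were Egfl7 and Pecam1. The endothelial co-receptor gene Eng was the member below, at 4.14, 4.34 and 3.65 CPM after MI and 5.81, 5.43 and 6.46 CPM in HTN. Sinusoidal markers had a ratio of 1.02. Arteriolar markers had a ratio of sums of 1.10, in which Cxcl12 made up most of the level (164 ± 42.7 CPM after MI and 153 ± 102 CPM in HTN, mean ± SD, n = 3). All 12 arteriolar markers had positive log2 differences, with a median of 0.59 and 2 of 12 above, and the median ran from 0.30 without HTN replicate 4 to 0.88. The remaining sets overlapped, with ratios of 0.798 for macrophages, 1.05 for erythroid cells, 1.06 for megakaryocytes and platelets, 1.34 for plasma cells, 1.18 for T and NK cells, 1.13 for eosinophils, 0.971 for stem and progenitor cells, 0.998 for mesenchymal stromal cells, 1.03 for osteoblasts and 1.74 for immunoglobulin genes. In some sets the ratio of sums and the median of the members lay on opposite sides. T and NK cell markers had a median log2 difference of -0.21, with 13 of 18 negative, although the abundant cytotoxic granule gene Nkg7 was at 572 ± 131 CPM after MI and 422 ± 70.7 CPM in HTN. The medians were also opposite to the ratio for megakaryocytes and platelets (-0.10), osteoblasts (-0.23), stem and progenitor cells (0.12) and osteoclasts (0.12), and each of these 4 medians changed sign on leaving out 1 library. Of the members, 2 of 15 macrophage, 3 of 14 erythroid, 1 of 13 megakaryocyte, 1 of 9 plasma cell, 3 of 18 T and NK cell, 1 of 15 mesenchymal and 1 of 7 osteoblast markers lay below and 2 of 15 stem and progenitor markers above. The shares below ran from 6.67% (mesenchymal) to 21.4% (erythroid), against 10.2% of all tested genes. The stem and progenitor share above was 13.3%, against 9.34%. The 4 Y-linked genes checked were present and Xist was under 1 CPM in all 12 libraries, so that sex did not differ between groups.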

How the data were processed

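RNA of cells sorted as bone marrow endothelium was sequenced in 12 mouse libraries, 1 mouse each, in 4 groups of 3 named replicates 2, 3 and 4 by the labels. The deposited values are raw counts by Ensembl gene. According to the study's methods, the authors aligned and counted directional poly(A) libraries with STAR 2.7.3a on GRCm38.p6. Which strand column was taken is not given in the sources used here. Gene names, lengths and coordinates came from the GENCODE M21 annotation of GRCm38.

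Counts of the 12 libraries were filtered with edgeR 4.0.16 (filterByExpr with the groups), scaled by TMM and fitted with 1 coefficient per group, leaving 8 residual degrees of freedom. MI minus HTN was tested with the quasi-likelihood test and Benjamini-Hochberg adjustment over 15999 genes. Standard errors are those of this model. The 95% intervals take normal quantiles of these errors, so that they are narrower than the test's finite degrees of freedom imply. Replicates come from separate mice, and all replicate pairs differed beyond counting noise. The fit was tested on simulated counts with known changes. It called 42 of 98 genes with a log2 change of 1, 85 of 100 with a change of 2, and 6 unchanged genes. The simulation held no library set apart as MI replicate 2 was. Lengths are summed exon lengths. Counting intervals cover counting error only.

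Gene lists and members were chosen with earlier results of these data known. Genes named are the 12 protein-coding genes of smallest p in each direction with a mean of at least 1 CPM, since none passed, then the 3 members of smallest p in each of 20 pathway lists and 16 genes of the study's design. Further list members were named after their values were seen, and a few genes under these rules are not reported here. Counts per list refer to members that passed the filter on low counts. These were 29 of 45 proteoglycan, 48 of 58 collagen, 29 of 39 renin-angiotensin, 27 of 29 VEGF, 18 of 21 niche, 51 of 57 cytokine, 38 of 41 adhesion, 18 of 19 clock, 77 of 81 ribosomal, 15 of 37 mitochondrial, 37 of 38 red cell and 18 of 19 primary granule genes, and 14 of 15 erythroid, 9 of 10 basophil, 7 of 10 osteoblast, 4 of 8 osteoclast and 187 of 394 immunoglobulin markers. The other lists passed whole, apart from Xist. Marker sets used CPM of unscaled totals. Alternatives were the likelihood-ratio test, DESeq2 1.42.0, RLE scaling, other filters, fewer samples, a replicate block, another threshold and leaving out each library. Results without MI replicate 2 were chosen after seeing the data.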

Additional observations from a re-analysis of the deposited data

Results flagged for a closer look

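In 6 of the genes named above, the MI and the HTN libraries lay on opposite sides of all 3 control libraries. MI was above and HTN below the controls in Ms4a6d (log2 difference between MI and HTN of 1.22), Ms4a4a (2.34) and Vps13c (0.66), and MI below and HTN above in Scd1 (-0.98), Itgb5 (-0.72) and Ccl22 (-1.92). In Ms4a6d the highest HTN library (25.4 CPM) all but met the lowest control (25.5 CPM). Whether the 2 disease effects differ was not tested beyond the contrast of MI with HTN itself, in which none of these genes passed, and all 6 were named for a small p in that contrast. The ApoE libraries, which stand outside the comparison of MI with HTN, were above all other libraries in Scd1 (58.6, 35.2 and 32.6 CPM, log2 difference from control 1.17, adjusted p = 0.0482) and Treml4 (61.1, 46.5 and 43.7 CPM, 1.05, adjusted p = 0.172). Both adjusted p-values are from edgeR's quasi-likelihood test of ApoE against control in the same fit, which Scd1 passed and Treml4 did not. ApoE was not tested against MI or HTN. According to the study's methods, the mice with atherosclerosis received a western-type diet. The part of diet in these levels was not tested.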

How the results depend on the processing

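The quasi-likelihood test called 0 genes with RLE scaling, a stricter filter (10 counts or more in each library), the MI and HTN libraries fitted alone, immunoglobulin and hemoglobin genes left out, a threshold of 0.1, each library left out in turn (0 to 0) and the replicate block (0). The likelihood-ratio test called 2 genes and DESeq2 11. The same quasi-likelihood test with no filter beyond 1 count in total called 422, of which 406 were also among the genes tested here. After MI replicate 2 stood apart, the likelihood-ratio test was repeated without it and called 1 gene. The cause of these differences was not tested. Deviations of libraries with the same replicate number correlated at 0.226, 0.033 and 0.342 across genes, and MI replicate 3 correlated best with another number, so the numbers were not taken as pairs.

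Of the log2 differences of named genes under all alternatives, 1218 stayed on the same side of 0 and of the threshold, 50 passed the threshold only under DESeq2 (11), the likelihood-ratio test (2) or no filter (37), and 14 changed sign. Ptprc was -0.0202 with no filter. Leaving out 1 library gave -0.0925 to 0.703 for Apoe, -0.061 to 0.479 for Vcam1, -0.0188 to 0.345 for Kdr, -0.347 to 0.0127 for Angpt1, -0.173 to 0.802 for Kitl, -0.219 to 0.793 for Cxcl12 and -0.062 to 0.116 for Ptprc. Of the list medians, 265 stayed within the spread between replicates and 15 moved beyond it. Log2 ratios of marker sums (MI over HTN) kept their sign in 116 values. On TMM-scaled libraries they were 0.018 for stem and progenitor cells and 0.068 for mesenchymal stromal cells. Leaving out 1 library gave -0.026 to 0.139 for sinusoidal and -0.135 to 0.674 for arteriolar endothelial cells, -0.176 to 0.228 for erythroid cells, -0.11 to 0.383 for megakaryocytes and platelets, -0.071 to 0.588 for eosinophils, -0.166 to 0.059 for stem and progenitor cells, -0.287 to 0.605 for mesenchymal stromal cells and -0.109 to 0.351 for osteoblasts. Precision was limited by 3 libraries a group and, for genes such as Ccl22, by few counts. The shallowest library, MI replicate 4, held 17007088 counts.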
